A study of Mus musculus with 15 samples.

Results

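Transcripts of Kelch-like proteins and of the subunits of cullin ubiquitin ligases were followed in cumulus cells of the mouse, which enclose the growing and maturing oocyte within its follicle. Members were chosen by name: genes called Klhl or Kbtbd with a number, the cullin genes Cul1 to Cul9, and Rbx1, Rnf7, Keap1, Spop, Nedd8, Cand1 and Cand2. Of 15059 named genes in the authors' table of detected probes, 46 met this rule on 63 probes, and each was read by its brightest probe. They were 32 genes of BTB-Kelch proteins with Keap1 counted among them, Spop, 8 cullins, 2 RING subunits, and Nedd8 with Cand1 and Cand2.

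Cumulus cells of B6CBAF1/J mice were taken at 3 stages of oocyte competence, with 5 arrays a stage, each from a pool of mice. NC1 cells came from 3-week-old animals, whose prophase I oocytes are poor at supporting development or unable to do so, and C1 cells from 8-week-old animals with competent prophase I oocytes. C2 cells came from 8-week-old animals that were superovulated with pmsg and hCG. Their expanded complexes were collected in the oviduct with metaphase II oocytes, and hyaluronidase was used to free the cells at this stage only. Hormone treatment, ovulation and the enzyme therefore cannot be told apart in any difference between C2 and the other stages, and age cannot be told apart from competence between NC1 and C1.

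Cullins are elongated scaffold proteins that hold a RING protein at one end and a substrate adaptor at the other, and together they attach ubiquitin to chosen proteins. CUL3 works with adaptors that carry a BTB domain, most often joined to a Kelch domain that binds the substrate, whereas CUL1 uses F-box proteins, CUL2 and CUL5 use elongin-bound box proteins, and CUL4 uses DDB1 with WD40 proteins. NEDD8 attached to the cullin switches the ligase on, the COP9 signalosome takes it off, and CAND proteins exchange the adaptors. In cumulus cells, the ovulatory stimulus is known to bring a new matrix, a stop to proliferation and a wide change of transcripts.

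Signals are given on the log2 scale relative to each array's median over probes that were well above background, so that 0 is the level of the median probe and 1 unit is a doubling. They compare stages for one gene and do not rank genes by abundance. Between 18368 and 24496 of 39429 gene probes were well above background per array, and 17324 were so in at least 4 of 5 arrays of every stage. Only these valid probes were tested. All 10 cumulus and granulosa markers looked up (Amh, Fshr and Foxl2 among them) had a valid probe, and 8 of them fell from C1 to C2. Other cells' markers also moved with stage. The summed signal (as log2) of 7 theca and stroma markers lay between 3.31 and 4.04 at C1 and between -1.01 and -0.46 at C2, and that of 8 oviduct epithelium markers between 2.86 and 3.58 at C1 and between 4.64 and 4.92 at C2. Of the 6 oviduct markers with a valid probe, the keratins Krt8 (1.30) and Krt18 (1.77) rose from C1 to C2, Epcam (-1.05) and Tppp3 (-1.01) fell, and the others did not pass. The sum of 13 oocyte markers lay between 3.71 and 5.69 at NC1 and C1 and between 3.79 and 4.13 in C2 replicates 1 to 3, but at -0.27 and -0.09 in C2 replicates 4 and 5. The part of these cells in the results below was not tested. In pooled cells, fewer cells of a type and less RNA per cell cannot be told apart.

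Of the 46 genes, 39 had a valid probe. In these 39, C1 and NC1 differed in 1, which was 2.56% against 2.52% of all valid probes. It was lower at C1 (0.768% of all valid probes were) and none was higher (1.75% of all valid probes). From C1 to C2, 17 of 39 differed, which was 43.6% against 47.6% of all valid probes, so that as a group they were called no more often than other transcripts. Among the 17, 14 were higher at C2 (25.4% of all valid probes were) and 3 were lower (22.2% of all valid probes). Over all 39 tested genes the median difference was 0.19, beside 0.02 over all valid probes. The median absolute difference of the 39 was 0.35, beside 0.47. The direction of the calls over all valid probes depended on the scaling of the arrays: with spike-in probes 9.1% were higher and 14.8% lower at C2, against 7 and 2 of the 39 genes, and with the authors' deposited values 30.6% were higher and 10.4% lower, against 15 and 2 of the 39. The stage effect as a whole passed the F-test in 18 of 39, where 51.5% of all valid probes did. Tests were two-sided limma tests with Benjamini-Hochberg adjustment over 17324 probes at 0.01, and the C2 against C1 and C1 against NC1 comparisons share the C1 arrays. All 17 called genes moved in the called direction within each of the 4 slides on which the arrays lay. They were called for that direction on these same arrays, so the slides give no separate support. With slide as a block, 15 of 39 were called (44.8% of all valid probes were), and Klhl26 (0.55; limma, adjusted p = 0.0103) and Kbtbd2 (0.31; limma, adjusted p = 0.0269) were not.

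**Figure D1:**
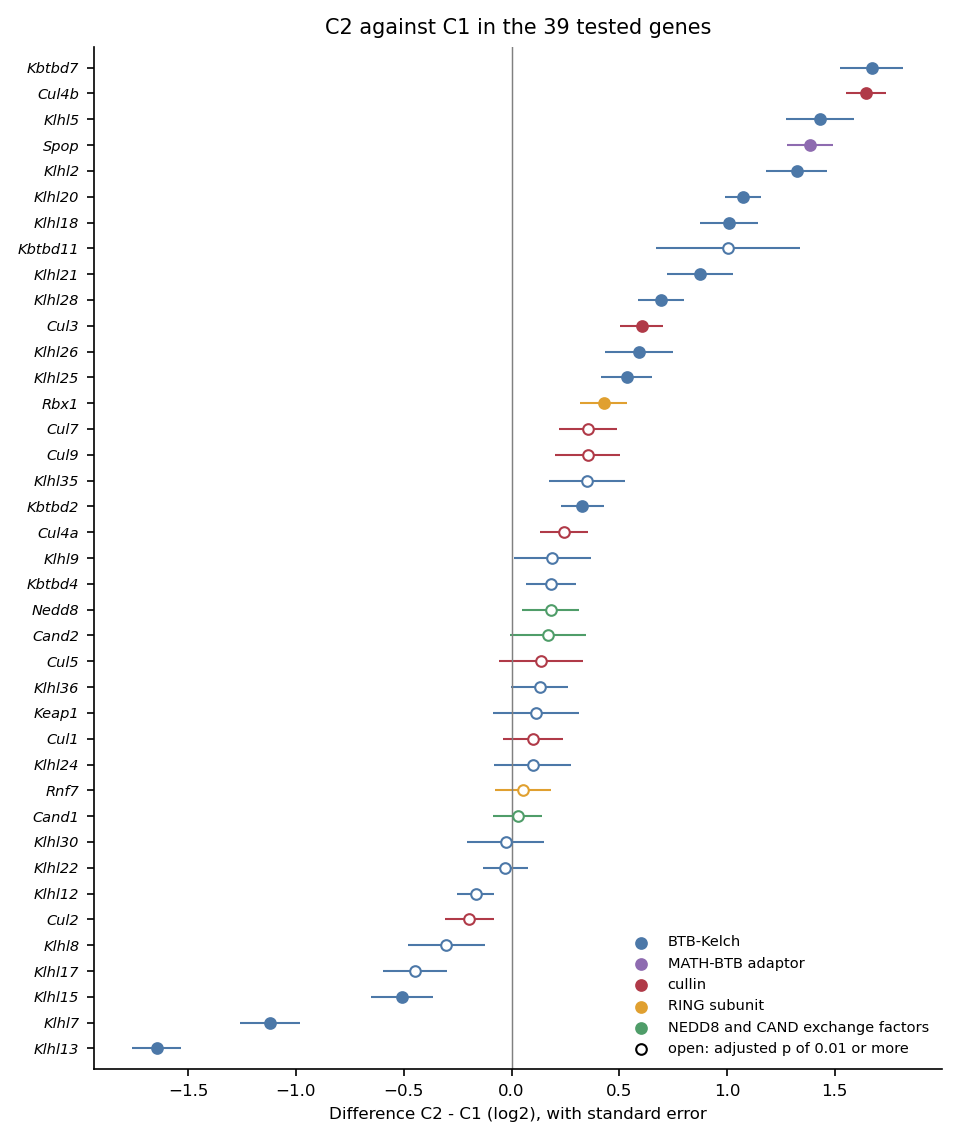
Difference between C2 and C1 on the log2 scale for the 39 tested genes, 1 row a gene, with the standard error of the fit as a bar. Filled points passed the limma test (14 higher at C2, 3 lower) and open points did not. Kbtbd7 lies at 1.67 and Klhl13 at -1.65.

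Among the BTB-Kelch adaptors, 10 of 25 tested genes rose from C1 to C2, 3 fell and 12 did not pass, beside 25.4% higher and 22.2% lower over all valid probes. Klhl2 encodes an actin-binding Kelch protein that directs CUL3 to WNK kinases. Its signal was -0.56, -0.63, -0.02, -0.23 and -0.61 in the 5 NC1 arrays, -0.65, -0.85, -0.39, -0.22 and -0.36 in the C1 arrays, and 0.73, 0.90, 0.89, 0.69 and 0.93 in the C2 arrays. Every C2 array was above every other array, and the immature stages overlapped. The rise from C1 to C2 was 1.32 ± 0.14 (SE), or 2.50-fold (limma, adjusted p = 5.75e-07).

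Klhl5 was at -0.33, -0.35, -0.11, -0.30 and -0.59 in NC1, at -0.72, -0.85, -0.47, -0.74 and -0.60 in C1, and at 0.87, 1.1, 1.08, 0.16 and 0.56 in C2. The C2 arrays all lay above the others but were spread more widely than those of Klhl2. The lowest of them were C2 replicates 4 and 5, the arrays with low oocyte markers, whose part was not tested. The gene rose by 1.43 ± 0.16 (SE), or 2.70-fold (limma, adjusted p = 9.6e-07). Klhl18, whose product works with CUL3 on the mitotic kinase Aurora A, read -1.33, -1.07, -1.02, -1.27 and -1.34 in C1 and -0.49, -0.33, -0.04, -0.11 and -0.02 in C2. Its NC1 arrays, from -1.59 to -0.96, overlapped those of C1. Klhl18 rose 2.01-fold at C2, by 1.01 ± 0.14 (SE, limma, adjusted p = 7.49e-06).

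Kbtbd7, an adaptor known to target the Rac activator TIAM1, had the highest rise among the tested genes. It was dim in the immature stages, from -2.99 to -2.41 in NC1 and at -2.75, -3.11, -3.11, -2.88 and -2.67 in C1, and reached -1.60, -1.36, -1.31, -0.96 and -0.94 in C2. The highest of these were C2 replicates 4 and 5, the arrays with low oocyte markers, whose part was not tested. The stages before and after ovulation did not overlap, and the difference from C1 was 1.67 ± 0.15 (SE), or 3.19-fold (limma, adjusted p = 6.44e-08). Klhl20, whose substrates include PML, DAPK1 and ULK1, had the smallest standard error of the tested genes. It lay between -2.06 and -1.83 in NC1, between -2.03 and -1.89 in C1, and between -0.92 and -0.80 in C2, with a rise of 1.07 ± 0.08 (SE), or 2.10-fold (limma, adjusted p = 1.29e-08). Klhl21, an adaptor of CUL3 for Aurora B in dividing cells, rose by 0.88 ± 0.15 (SE), or 1.84-fold, from -1.93 to -1.72 across the C1 arrays to -1.42 to -0.46 across the C2 arrays (limma, adjusted p = 0.000116).

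The rises were smaller in Klhl28 (0.69), Klhl26 (0.59), Klhl25 (0.53) and Kbtbd2 (0.33). Klhl28 was between 1.04 and 1.16 in C1 and between 1.68 and 1.86 in C2, so it did not overlap, whereas the ranges of Klhl26 overlapped (from -1.0 to -0.38 in C1, from -0.43 to 0.12 in C2). Klhl25, an adaptor that targets the translation repressor 4E-BP1, was read by 2 valid probes that disagreed. The brighter rose (limma, adjusted p = 0.000889), while the other gave -0.35 ± 0.13 (SE) and missed the threshold (limma, adjusted p = 0.0329). The mean of both gave 0.09 (limma, adjusted p = 0.504). Kbtbd2, an adaptor for the PI3-kinase regulatory subunit p85, passed narrowly (limma, adjusted p = 0.00973) and lost its call without any 1 of 13 of the 15 arrays, all but NC1 replicate 3 and C1 replicate 5, with adjusted p from 0.0104 to 0.0315. Klhl26 lost its call without C1 replicate 2 or 3 or C2 replicate 1 or 2 (limma, adjusted p from 0.011 to 0.0124).

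Klhl13, Klhl7 and Klhl15 fell. Klhl13, which is X-linked and whose product is an Aurora B adaptor together with that of Klhl9, was at 1.58, 1.82, 2.09, 1.55 and 1.84 in C1 and at 0.19, 0.08, -0.07, 0.17 and 0.28 in C2. The NC1 arrays, from 1.92 to 2.22, overlapped those of C1, and every C2 array lay below both. The drop from C1 to C2 was -1.65 ± 0.11 (SE), a 3.13-fold lower signal (limma, adjusted p = 3.57e-09). Its partner Klhl9 read 2.15 to 2.6 in C1 and 2.36 to 3.13 in C2, with a difference of 0.19 that did not pass (limma, adjusted p = 0.383). Klhl7, a gene mutated in a form of retinitis pigmentosa, was at -1.78, -1.78, -1.56, -1.44 and -1.69 in C1 and at -2.41, -2.66, -2.83, -3.23 and -2.74 in C2. Its ranges did not overlap, and it fell by 1.12 ± 0.14 (SE), or 2.18-fold (limma, adjusted p = 3.02e-06).

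Klhl15, an adaptor for a regulatory subunit of the phosphatase PP2A, gave the weakest of the 3 falls, -0.51 ± 0.14 (SE, limma, adjusted p = 0.00571). Its C2 arrays were tightly grouped between -3.17 and -3.04, but C1 replicate 1 at -3.12 lay among them while the others were between -2.75 and -2.20. The call was lost without C1 replicate 3, 4 or 5 or C2 replicate 2, 3, 4 or 5 (limma, adjusted p from 0.0104 to 0.0165).

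**Figure D2:**
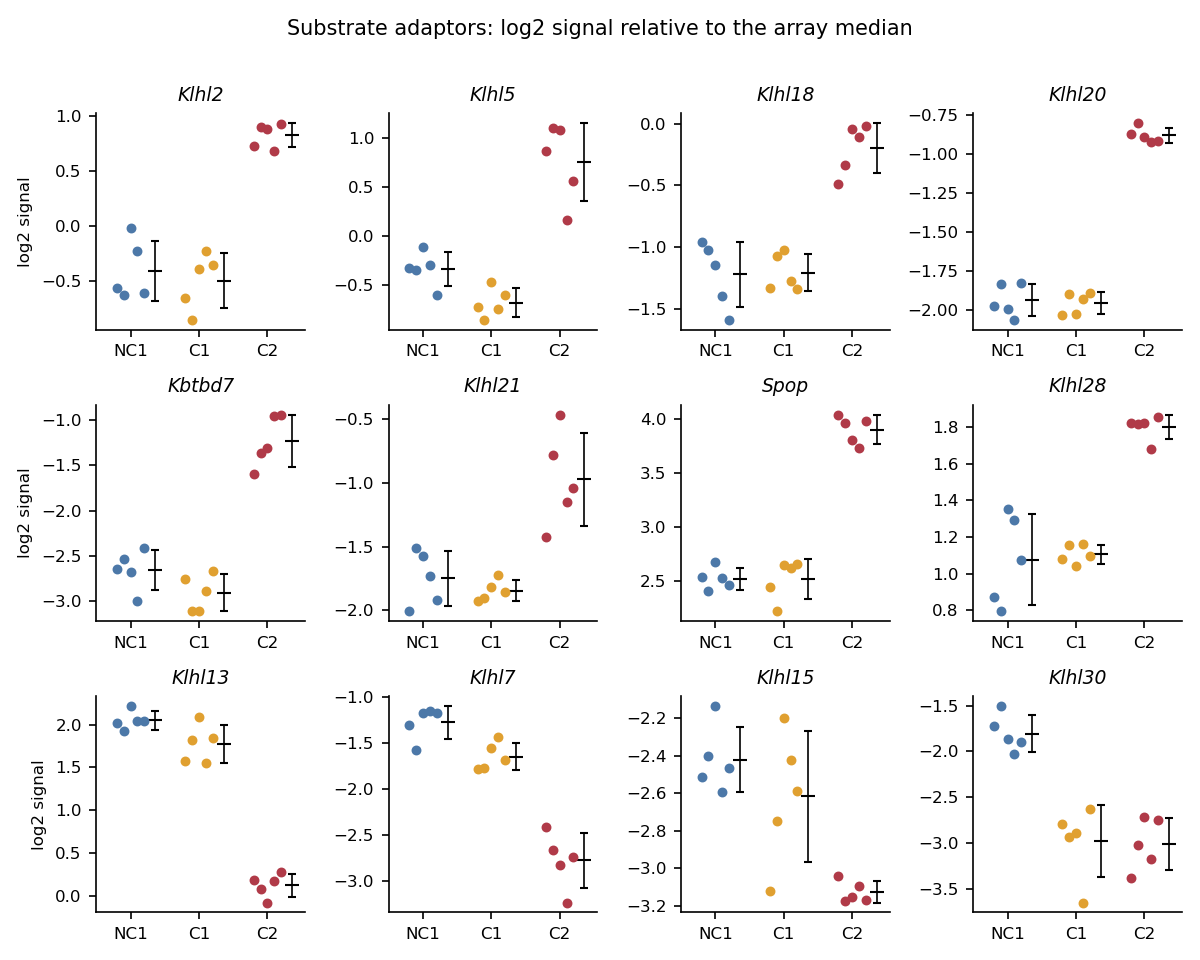
Signal of 12 substrate adaptors in each array, as log2 relative to the array median, by stage (blue NC1, amber C1, red C2; each panel has its own axis). Points are arrays, and the black mark and bar are the mean and SD of 5. In the 8 upper panels the C2 arrays lie above all C1 arrays. Klhl13 and Klhl7 lie below them at C2, Klhl15 overlaps, and Klhl30 is lower in both adult stages.

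Klhl30 was the only tested gene of the group that differed between the immature stages. Its NC1 arrays read -1.73, -1.50, -1.87, -2.02 and -1.90, its C1 arrays -2.79, -2.94, -2.90, -3.65 and -2.63, and its C2 arrays -3.38, -3.02, -2.71, -3.17 and -2.75. The juvenile arrays were all above the adult ones, and the adult stages overlapped. It fell by 1.18 ± 0.18 (SE) from NC1 to C1, or 2.26-fold (limma, adjusted p = 0.000602), and C2 differed from C1 by only -0.03 (limma, adjusted p = 0.912). Red blood cell markers, of which 4 of 5 valid ones also fell from NC1 to C1, had a summed log2 signal from 6.20 to 8.78 in NC1 and from 3.40 to 5.45 in C1, and their part in this difference was not tested. Besides Klhl30, Cand1 made up the 2 of 39 genes whose NC1 and C1 arrays did not overlap (5.97% of all valid probes did not), at 3.06-3.35 and 2.81-3.01, and its difference of -0.25 missed the threshold (limma, adjusted p = 0.283).

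Besides Keap1, 11 BTB-Kelch genes were tested and not called at C2 against C1, with differences from -0.45 (Klhl17) to 1.01 (Kbtbd11). Kbtbd11 was spread widely among replicates. Its C1 arrays were at -0.82, -2.86, -2.27, -1.65 and -2.44 and its C2 arrays at -1.32, -1.71, -1.38, -0.18 and -0.43. C2 replicates 4 and 5, the arrays with low oocyte markers, averaged -0.30 and replicates 1 to 3 -1.47. The part of the oocyte markers in this was not tested. The stages overlapped, and the 2.01-fold difference in the means did not pass (limma, adjusted p = 0.0164). It passed without C1 replicate 1 or without C2 replicate 2 (limma, adjusted p from 0.00115 to 0.00795). A second probe was above background in 2 of 5 NC1, 3 of 5 C1 and 5 of 5 C2 arrays and so was not tested. It read -4.13 ± 0.45 (SD, n = 5) in C1 and -1.82 ± 0.80 in C2. That probe is in the authors' table through C2, where it is brighter, so no result is drawn from it. On the first probe the NC1 arrays were tight, from -2.6 to -2.31, and C2 was higher than NC1 by 1.40 ± 0.33 (SE, limma, adjusted p = 0.00158). Klhl17, which encodes the actin-binding actinfilin, gave -0.45 ± 0.15 (SE, limma, adjusted p = 0.0168) and passed without NC1 replicate 1 (limma, adjusted p = 0.00509) and with quantile normalization (limma, adjusted p = 0.0078). Klhl12, which acts on the COPII coat protein SEC31, fell from NC1 to C2 by 0.30 ± 0.09 (SE, limma, adjusted p = 0.00673), and C2 against C1 did not pass except with quantile normalization (limma, adjusted p = 0.00915). The fall from NC1 lost its call in 13 of 32 alternative settings, among them slide as a block (limma, adjusted p = 0.018) and the arrays without NC1 replicate 1, 3 or 4 or C2 replicate 2 or 3 (limma, adjusted p from 0.0142 to 0.0215).

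Keap1 encodes the Kelch adaptor that holds the antioxidant transcription factor NRF2 at a low level. It was at 1.99, 1.89, 1.64, 1.79 and 2.07 in C1 and at 1.31, 1.80, 2.27, 2.29 and 2.28 in C2. C2 replicate 1 was below the C1 range, replicate 2 within it and the others above it, and the difference of 0.11 ± 0.20 (SE) did not pass (limma, adjusted p = 0.651).

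Spop, a CUL3 adaptor that binds its substrates through a MATH domain in place of a Kelch domain, rose in all 3 of its probes. The brightest read 2.44, 2.22, 2.65, 2.62 and 2.65 in C1 and 4.04, 3.96, 3.80, 3.73 and 3.98 in C2, with NC1 from 2.40 to 2.67. The C2 arrays stood apart from both earlier stages by more than 1 unit. Spop rose by 1.38 ± 0.11 (SE), or 2.61-fold (limma, adjusted p = 1.27e-08), and its other 2 valid probes rose by 1.33 and 0.90.

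Upstream sequence is shown of the genes called higher at C2 than at C1 by at least 2-fold. The letters of known regulatory motifs were searched in it. These genes were chosen by that rise, so their shared direction is no result. RefSeq promoters (GRCm38.p6) were found for 40 of the 46 genes, 52 start sites in all, and the 250 bases before each start were read. Searched on both strands were TGACG (the core of the cAMP response element), TGANTCA (AP-1), CAAGGTCA (NR5A receptors), CCAAT (the CCAAT box), GGGCGG (GC box), CCGGAAG (ETS factors) and TGACNNNGC (the antioxidant response element, which can overlap TGACG). The sequences run 5′ to 3′ on the gene's strand up to the base before the start, with motif matches in capitals.
Klhl2, chr8:64849925-64850174, minus strand: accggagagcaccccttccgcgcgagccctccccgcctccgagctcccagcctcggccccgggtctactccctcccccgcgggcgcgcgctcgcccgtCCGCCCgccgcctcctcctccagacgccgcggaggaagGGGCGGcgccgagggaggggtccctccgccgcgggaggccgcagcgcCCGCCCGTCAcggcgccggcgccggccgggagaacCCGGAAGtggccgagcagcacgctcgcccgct
Klhl5, chr5:65107318-65107567, plus strand: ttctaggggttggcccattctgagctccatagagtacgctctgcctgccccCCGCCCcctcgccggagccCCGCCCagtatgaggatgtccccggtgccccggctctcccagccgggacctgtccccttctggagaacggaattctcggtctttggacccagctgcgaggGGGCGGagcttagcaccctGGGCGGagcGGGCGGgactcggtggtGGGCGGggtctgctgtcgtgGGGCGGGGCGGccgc
Klhl5, chr5:65130981-65131230, plus strand, a second start: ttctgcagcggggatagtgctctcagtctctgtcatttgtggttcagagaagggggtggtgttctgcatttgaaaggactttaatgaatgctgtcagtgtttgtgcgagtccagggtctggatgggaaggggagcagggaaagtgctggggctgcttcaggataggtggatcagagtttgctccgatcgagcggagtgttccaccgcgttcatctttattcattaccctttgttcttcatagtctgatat
Klhl18, chr9:110476695-110476944, minus strand: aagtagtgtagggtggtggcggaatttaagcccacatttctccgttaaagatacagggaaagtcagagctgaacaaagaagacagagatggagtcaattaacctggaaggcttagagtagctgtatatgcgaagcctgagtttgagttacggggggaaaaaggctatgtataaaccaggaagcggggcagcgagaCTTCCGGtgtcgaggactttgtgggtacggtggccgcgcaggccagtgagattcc
Klhl20, chr1:161131480-161131729, minus strand: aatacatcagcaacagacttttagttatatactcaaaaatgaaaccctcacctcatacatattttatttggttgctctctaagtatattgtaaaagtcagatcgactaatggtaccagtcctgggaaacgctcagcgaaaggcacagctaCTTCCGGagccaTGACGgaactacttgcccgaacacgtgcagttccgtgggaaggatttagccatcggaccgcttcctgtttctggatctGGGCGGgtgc
Kbtbd7, chr14:79426261-79426510, plus strand: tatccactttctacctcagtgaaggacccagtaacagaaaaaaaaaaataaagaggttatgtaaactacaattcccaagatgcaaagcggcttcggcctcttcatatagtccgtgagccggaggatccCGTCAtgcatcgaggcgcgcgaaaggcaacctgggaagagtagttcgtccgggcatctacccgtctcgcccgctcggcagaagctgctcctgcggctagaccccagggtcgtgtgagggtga
Spop, chr11:95413833-95414082, plus strand: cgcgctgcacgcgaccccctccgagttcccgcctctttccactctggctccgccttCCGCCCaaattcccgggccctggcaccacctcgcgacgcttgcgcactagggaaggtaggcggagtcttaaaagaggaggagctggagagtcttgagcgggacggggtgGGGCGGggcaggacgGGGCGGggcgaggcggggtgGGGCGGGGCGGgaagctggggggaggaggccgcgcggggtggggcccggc
Cul4b, chrX:38576197-38576446, minus strand: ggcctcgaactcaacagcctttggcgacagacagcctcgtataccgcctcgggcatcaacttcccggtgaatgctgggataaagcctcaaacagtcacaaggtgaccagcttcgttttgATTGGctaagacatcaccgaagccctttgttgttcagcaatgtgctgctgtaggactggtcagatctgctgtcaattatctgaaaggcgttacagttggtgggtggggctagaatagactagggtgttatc

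No motif was common to these sequences. Klhl2, Klhl20 and the first Klhl5 start held GC boxes, 3, 1 and 8 of them, and Spop held 5. The second Klhl5 start held none of the 7 motifs, and the arrays do not tell which start was used. TGACG was in Klhl2, Klhl20 and Kbtbd7, and CCGGAAG in Klhl2, Klhl18 and Klhl20. Over all member genes that rose at C2, TGACG was in 7 of 16 promoters, against 17.8% of all 32851 promoters in the table and 5 of 20 promoters of members that were tested and not called. GC boxes were in 11 of these 16 and in 14 of the 20, against 32.7% of all promoters. The 16 promoters belong to 14 genes and the 20 to 16 genes. Klhl22 and Klhl26 have starts so close that their promoters overlap and share matches, and these were counted separately. CAAGGTCA was in none of the 52, against 1.33% of all. Median GC content was 62.0% in promoters of genes that rose, 60.2% in those not called, and 52.4% over the table. A match is a run of letters and not a shown binding site.

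Among the cullin scaffolds, Cul3 and Cul4b rose at C2, and the other 6 did not pass. Cul3, the scaffold for all BTB adaptors, was at -1.48, -1.33, -1.62, -1.33 and -1.22 in NC1, at -1.35, -1.40, -1.56, -1.25 and -1.43 in C1, and at -0.88, -0.91, -0.78, -0.74 and -0.64 in C2. The immature stages had the same mean and C2 stood above both. The rise was modest, 0.60 ± 0.10 (SE), or 1.52-fold (limma, adjusted p = 6.54e-05).

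Cul4b, the X-linked scaffold of the DDB1 ligases, read 0.61, 0.68, 0.91, 0.69 and 0.78 in C1 and 2.50, 2.34, 2.23, 2.32 and 2.53 in C2, with NC1 between 0.64 and 0.87. It rose 3.13-fold, by 1.65 ± 0.09 (SE, limma, adjusted p = 3.89e-10). Its second probe rose less, by 0.47 ± 0.10 (SE, limma, adjusted p = 0.000878), so the direction was shared and the size was not. Cul4a, the paralog with the same partners, was at 0.57, 0.74, 0.73, 0.88 and 0.93 in C1 and at 0.68, 1.08, 1.03, 1.09 and 1.18 in C2. Its stages overlapped, and the difference of 0.24 ± 0.11 (SE) did not pass (limma, adjusted p = 0.073).

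Cul1, the scaffold of the SCF ligases, differed by 0.10 ± 0.14 (SE, limma, adjusted p = 0.561) and Cul5, the scaffold of SOCS-box proteins, by 0.14 ± 0.19 (SE, limma, adjusted p = 0.566). Cul2, which works with the VHL tumour suppressor, differed by -0.20 ± 0.11 (SE, limma, adjusted p = 0.156), and its 3 valid probes lay between -0.24 and -0.08. A dim probe of Cul2, not tested, read -3.06 in C1 and -4.21 in C2, where 3 of 5 arrays were above background. That probe is in the authors' table through the stages in which it is brighter, so no result is drawn from it. The large atypical cullins Cul7 and Cul9 gave 0.35 ± 0.13 and 0.35 ± 0.15 (SE, limma, adjusted p = 0.0324 and 0.052). Cul7 passed without C1 replicate 2 (limma, adjusted p = 0.00861), whose signal of 3.86 lay above the other C1 arrays at 3.28 to 3.56. The probes of Cul9 differed in sign and neither passed.

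**Figure D3:**
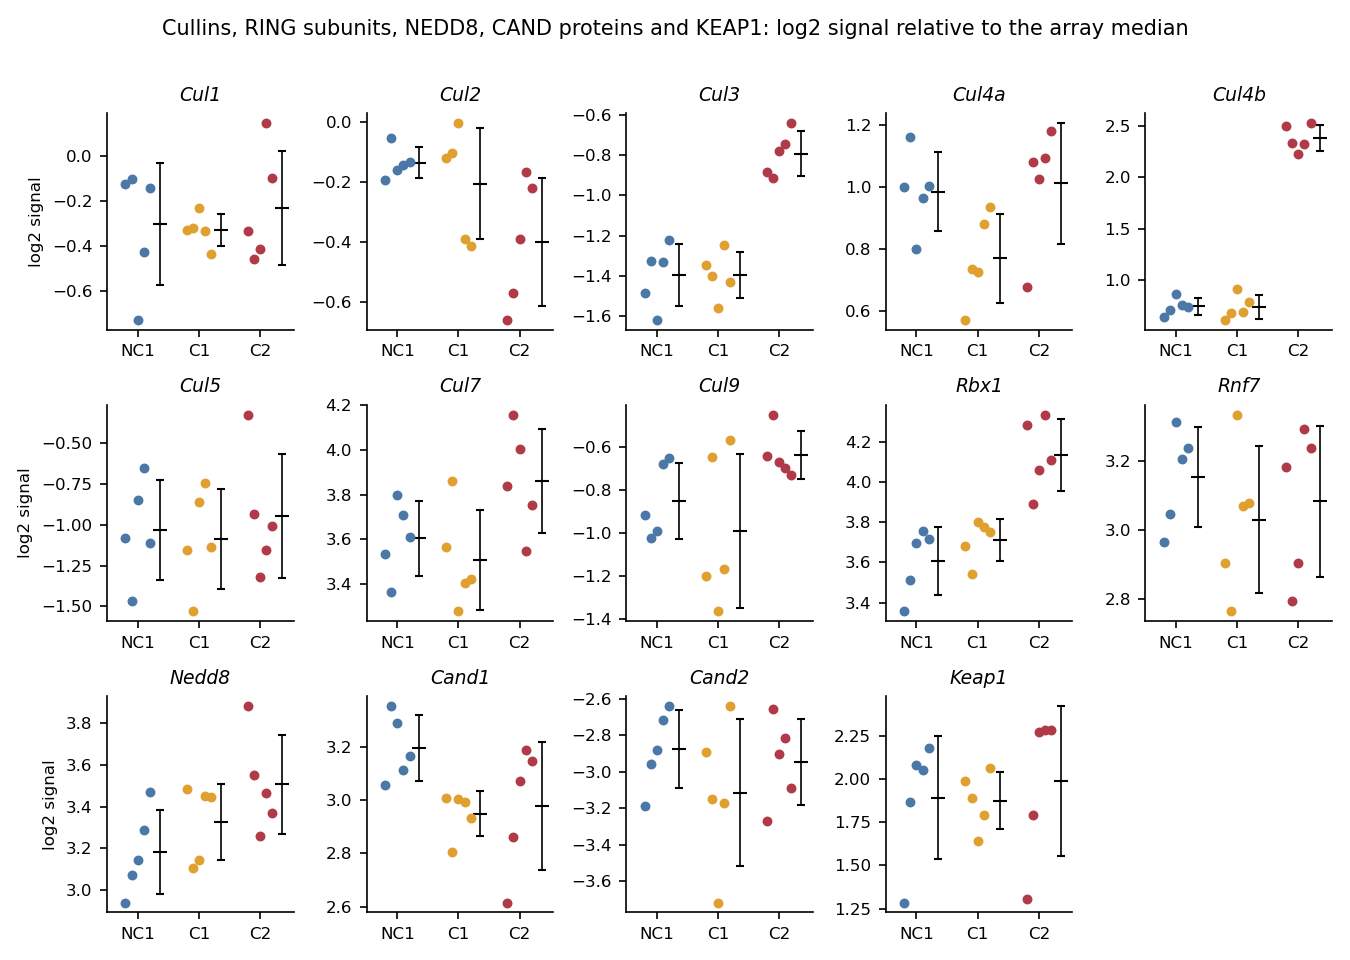
Signal of the 8 cullins, the RING subunits Rbx1 and Rnf7, Nedd8, Cand1, Cand2 and Keap1 in each array, as log2 relative to the array median, by stage (blue NC1, amber C1, red C2; each panel has its own axis). Points are arrays, and the black mark and bar are the mean and SD of 5. C2 arrays lie above all others for Cul3, Cul4b and Rbx1, and the stages overlap elsewhere, except for Cand1 between NC1 and C1.

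Rbx1, the RING subunit shared by CUL1 to CUL4 ligases, read 3.68, 3.54, 3.80, 3.78 and 3.75 in C1 and 4.29, 3.89, 4.06, 4.34 and 4.11 in C2. The ranges were close but did not overlap, and Rbx1 rose by 0.43 ± 0.11 (SE), or 1.34-fold (limma, adjusted p = 0.00318). Of its 3 probes 2 passed, the other gave 0.14, and the call was lost with the mean of the 3 probes (0.32; limma, adjusted p = 0.0107) and without C2 replicate 4 (limma, adjusted p = 0.0107). Rnf7, the RING subunit of CUL5 ligases, had 4 valid probes with differences from 0.05 to 0.29, none of which passed. Nedd8 was between 3.11 and 3.48 in C1 and between 3.26 and 3.88 in C2, a difference of 0.18 ± 0.13 (SE, limma, adjusted p = 0.263).

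Cand1 and Cand2, the exchange factors, gave 0.03 ± 0.11 and 0.17 ± 0.18 (SE) between C1 and C2 (limma, adjusted p = 0.851 and 0.436). The Cand1 probes disagreed: the brighter was at 2.81 to 3.01 in C1 and 2.62 to 3.19 in C2, whereas the second probe fell by 1.72 ± 0.22 (SE, limma, adjusted p = 4.46e-06). With the mean of both probes Cand1 was called lower at C2, by -0.85 (limma, adjusted p = 7.87e-05). Which transcripts these probes read was not analysed here.

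The other 7 genes had no valid probe because the signal at C2 was dim, and the requirement of detection in every stage keeps such genes out of the count of falls above. They are in the authors' table through the stages in which they are brighter, so their levels are described and no test of them is used. All 7 are BTB-Kelch genes, and each was well above background in all 5 NC1 arrays. Klhl31, a gene best known from skeletal muscle, was the brightest of them. It read -0.38, -0.18, 0.19, 0.10 and -0.20 in NC1, 0.36, 0.10, -0.51, 0.50 and -0.07 in C1, and -5.10, -5.04, -4.76, -4.19 and -4.31 in C2, where 2 of 5 arrays were above background. Juvenile and adult immature cells overlapped at the level of a median probe, and ovulated cells lay far below.

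Kbtbd5, the array's name for Klhl40, another muscle gene, read lower at each later stage. Its NC1 arrays were at -2.08, -1.88, -2.47, -2.28 and -1.70, its C1 arrays at -3.78, -4.90, -3.63, -4.16 and -3.59 with 4 of 5 above background, and none of its C2 arrays was above background. The mean NC1 signal was 6.55-fold above the lowest signals called well above background on the C2 arrays, averaged over these arrays. A single probe can miss detection above that level, so the fold is not a strict bound. No such fold is given for C1, where replicate 2 was not above background. Klhl32 was at -2.22 ± 0.36 (SD, n = 5) in C1 and at -4.17 ± 0.37 in C2, Klhl23 at -3.02 ± 0.40 and -4.87 ± 0.40, Klhl10, known from spermatids, at -2.65 ± 0.52 and -4.33 ± 0.49, and Klhl11 at -4.31 ± 0.31 and -5.75 ± 0.48. Their C1 and C2 arrays did not overlap, as in 43.9% of all valid probes. Entry through the brighter stages favours such a gap, so no result is drawn from it. Above background were 3, 3, 2 and 1 of 5 C2 arrays, and 3 of 5 C1 arrays of Klhl11. Kbtbd8 overlapped, from -4.26 to -3.05 in C1 and at -4.04, -3.81, -3.86, -4.96 and -5.49 in C2. Its C2 replicates 4 and 5 were the 2 lowest arrays and not above background, and these were also the arrays with low oocyte markers, whose part was not tested. Replicates 4 and 5 were also the lowest C2 arrays of Klhl10 and Kbtbd5 but the highest of Klhl31. Klhl11, Klhl23 and Klhl32 showed neither order.

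Theca and stroma markers were also lower at C2, where all 5 with a valid probe fell, and their part in the levels of the dim genes was not tested.

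**Figure D4:**
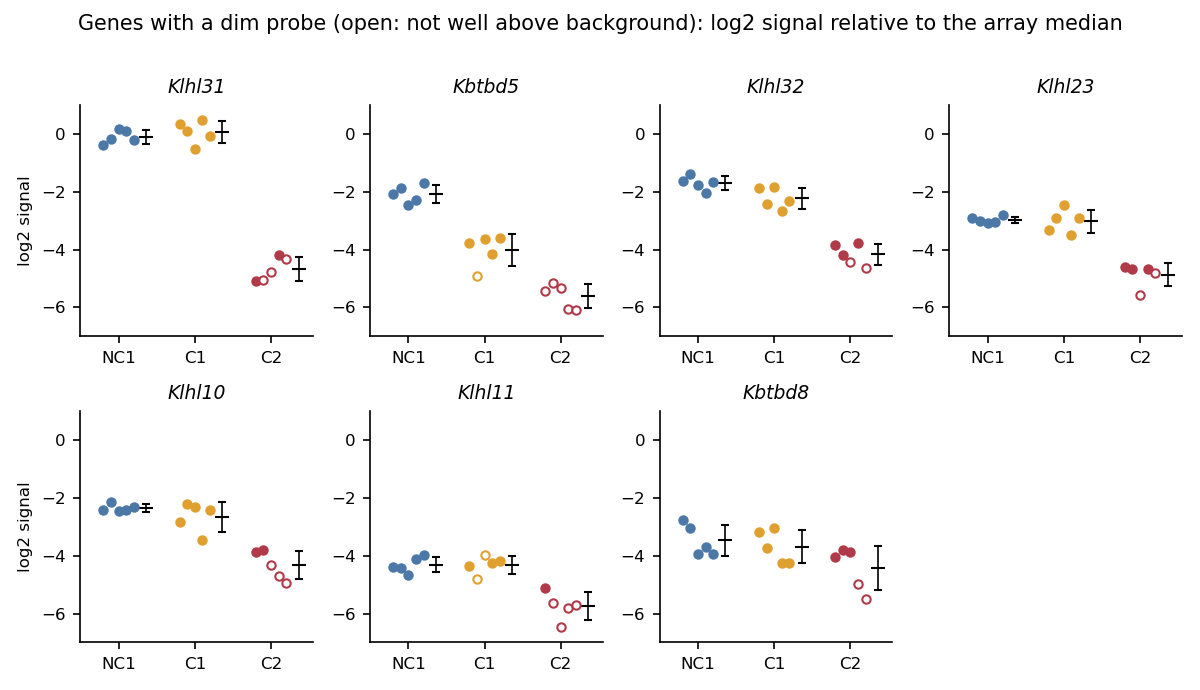
Signal of the 7 BTB-Kelch genes without a valid probe in each array, as log2 relative to the array median, by stage, on 1 common axis. Filled points are arrays in which the probe was well above background and open points those in which it was not. The black mark and bar are the mean and SD of 5. All NC1 points are filled, and none of the C2 points of Kbtbd5 is.

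C2 was also compared with NC1. There 19 of 39 genes differed, 14 higher (26.5% of all valid probes were) and 5 lower (24.9% of all valid probes), which was 48.7% against 51.5% of all valid probes. The lower genes were Klhl13, Klhl7, Klhl15, Klhl12 and Klhl30. Kbtbd11 was higher at C2 against NC1 and not against C1, and the reverse held for Kbtbd2 (0.12 against NC1; limma, adjusted p = 0.305). Arrays of C1 and C2 did not overlap in 15 of 39 genes (43.9% of all valid probes) and arrays of NC1 and C2 in 18 (48.9% of all valid probes).

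The other genes of these ligases were read from lists that hold no member, and their counts at C2 stand beside 25.4% higher and 22.2% lower over all valid probes. Detection in every stage was required here too. Genes that were dim at a stage, C2 among them, are therefore left out of the rises and falls counted and named. Between NC1 and C1, 2 genes of all these lists differed, both higher at C1 (1.75% of all valid probes were, and 0.768% were lower). Cish, a SOCS-box protein, was 1 of 29 tested adaptors of CUL2 and CUL5 (2.28, limma, adjusted p = 1.51e-05). Srxn1, which encodes sulfiredoxin, was 1 of 13 tested genes of NRF2 and its targets (1.77, limma, adjusted p = 3.64e-05). None of the other lists had a call between NC1 and C1. Of 3 tested BTB-Kelch genes with other names, Ivns1abp, an actin-binding Kelch protein, fell from 4.98 ± 0.44 (SD, n = 5) to 2.77 ± 0.22 between C1 and C2, or by 2.21 (limma, adjusted p = 2.47e-08), and the others did not pass. Of 22 other BTB adaptors of CUL3, 7 rose, 5 fell and 10 did not pass. Kctd21 and Abtb1 rose most, by 1.42 and 1.07, and Zbtb16 and Rhobtb3 fell most, by -1.31 and -1.07.

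Adaptors of the other cullins also moved both ways from C1 to C2 (values are log2 differences, C2 minus C1). Of 27 SCF genes, 11 rose and 5 fell. Fbxo32, the muscle-wasting F-box protein atrogin, went from -1.40 ± 0.15 (SD, n = 5) in C1 to 2.44 ± 0.27 in C2, a rise of 3.84 (limma, adjusted p = 1.39e-12), and Fbxo31 rose by 1.12. Fbxo5 (-1.93), an inhibitor of the anaphase-promoting complex, and Skp2 (-1.59), which targets the cell-cycle inhibitor p27, fell most. Of 29 adaptors of CUL2 and CUL5, 10 rose and 6 fell, with Spsb2 at 1.49, Spsb4 at 1.40, Asb13 at -1.86 and Socs1 at -1.73. Of 22 adaptors of CUL4, 7 rose and 2 fell. The risers were led by Dcaf7 (1.36) and Dcaf12 (1.29), and those that fell were Dtl (-2.26), which targets the replication factor CDT1, and the DNA damage sensor Ddb2 (-0.96).

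The NEDD8 enzymes and the signalosome were read as the same log2 difference. Of 11 genes that attach or remove NEDD8, Ube2m (0.72), the conjugating enzyme for most cullins, and Nub1 (0.68) rose, Senp8 (-0.58), the NEDD8 protease, and Dcun1d4 (-0.57) fell, and 7 did not pass. Of 9 signalosome subunits 3 rose, led by Cops2 (0.94) and Cops7a (0.64), and Gps1 fell (-0.70).

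Known substrates and targets were read from the same arrays as transcripts, which say nothing of protein levels. Of 13 genes of the KEAP1 substrate NRF2 and its targets, 8 rose at C2 (25.4% of all valid probes did), 1 fell (22.2% did) and 4 did not pass, with a median difference of 0.66 beside 0.02 over all valid probes. Nfe2l2, which encodes NRF2, was at 2.17 ± 0.17 (SD, n = 5) in C1 and 2.71 ± 0.28 in C2, a rise of 0.54 (limma, adjusted p = 0.00224). Srxn1 rose again at this step, C2 exceeding C1 by 2.09 (limma, adjusted p = 1.81e-07). Sqstm1, the autophagy receptor p62 that also binds KEAP1, rose by 1.65. Gclc, a subunit of the enzyme that limits glutathione synthesis, fell by 0.96. Of 16 substrates of BTB-Kelch ligases, 7 rose and 3 fell. Wnk4, a WNK kinase of the kind targeted by KLHL2, rose from -3.04 ± 0.40 (SD, n = 5) to -0.28 ± 0.16, or by 2.77 (limma, adjusted p = 7.36e-09), and Arhgef11, a substrate of KLHL20, rose by 1.22. Wnk2, a kinase of the same family, fell by 1.45, and Nolc1, a nucleolar substrate of KBTBD8, by 0.64.

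**Figure D5:**
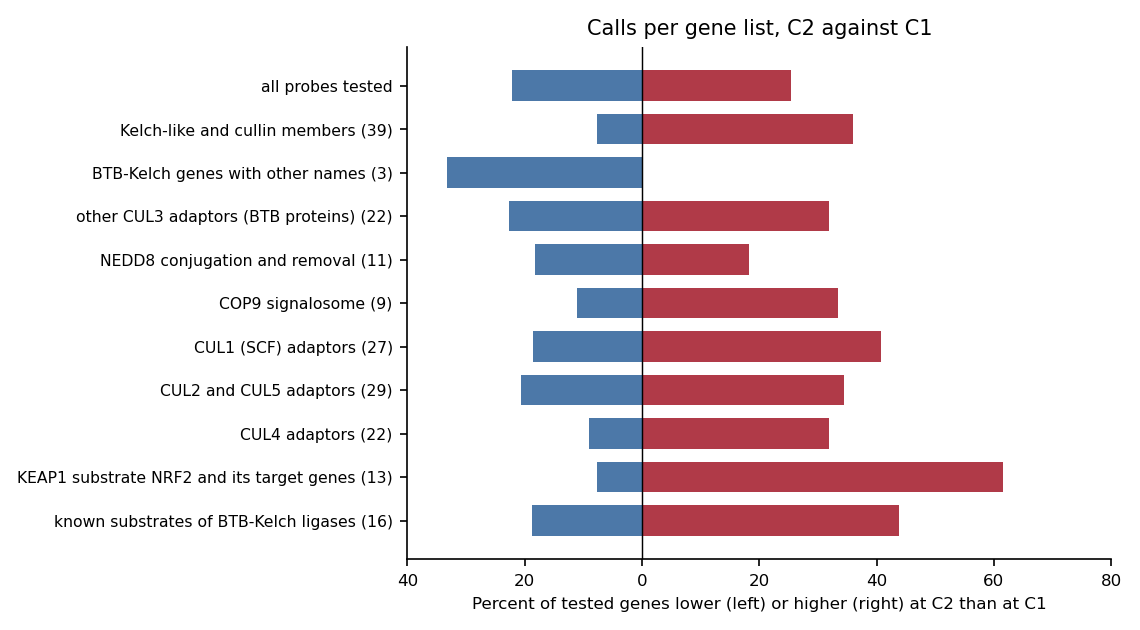
Percent of tested genes called higher (red, right) or lower (blue, left) at C2 than at C1 by limma in each gene list, with the number tested in brackets, beside the same over all probes tested (25.4% higher, 22.2% lower). Lists of 3 to 39 genes give coarse percentages, and the NRF2 list has 8 of 13 genes higher.

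The comparison of C2 with C1 was also made on fewer arrays, a choice made after the oocyte markers had been seen. Without C2 replicates 1 to 3, in which oocyte markers were high, 14 of 39 genes were called between C1 and C2, beside 35.4% of all valid probes in that setting and 47.6% with all arrays. Klhl25 (0.52; limma, adjusted p = 0.02), Klhl26 (0.36; adjusted p = 0.15), Kbtbd2 (0.40; adjusted p = 0.0301) and Klhl15 (-0.51; adjusted p = 0.0559) were no longer called, and Kbtbd11 was (1.70; adjusted p = 0.0025). Klhl2, Klhl5, Klhl18, Klhl20, Kbtbd7, Spop, Cul4b, Klhl13 and Klhl7 passed in this setting and in all other alternative settings tried, 32 in all. Of these settings, 1 was the same fit read at an adjusted p under 0.05, which no called gene can fail.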

How the data were processed

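Total RNA of cumulus cells was hybridised by the authors to Agilent 1-colour mouse arrays. The deposited scanner files hold each spot's processed signal intensity. The labels name Feature Extraction 10.5.1.1, whereas the headers of the scanner files name 10.7.1.1. The deposited log2 table holds the authors' probes present in at least 1 stage, scaled by 1 constant per array in GeneSpring. It was used for membership and as an alternative. Here log2 intensity minus each array's median over 17324 valid probes (well above background and unflagged in at least 4 of 5 arrays of each stage) was fitted with limma 3.58.1 in R 4.3.3, with 1 mean per stage, and called at a Benjamini-Hochberg adjusted p under 0.01. The fit was tested on simulated data. The number of arrays, 5 per stage, limits precision. The arrays lay on 4 slides that each held all 3 stages.

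The gene read for each symbol was its probe with the highest mean; other probes of called genes, and any whose stages separated differently, are given beside it. Named were Klhl2, Klhl5, Klhl18, every non-Kelch member and Keap1, members called between NC1 and C1, the 8 highest and 8 lowest called between C1 and C2, and members without a valid probe; in each list, the called genes with the 2 highest and 2 lowest differences, with Nfe2l2. Members and lists were chosen with earlier results of these data known. Promoter sequences came from RefSeq (GRCm38.p6).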

Additional observations from a re-analysis of the deposited data

Results flagged for a closer look

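In 117 groups of 5 arrays (39 genes in 3 stages), 2 held an array far from the others, and about 1 in 20 such groups is expected to by chance. Klhl25 read 1.74 in C1 replicate 2, below the other C1 arrays at 2.14 to 2.20. Klhl28 read 1.68 in C2 replicate 4, below the other C2 arrays at 1.82 to 1.86.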

How the results depend on the processing

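Of 17 genes called between C1 and C2, 9 kept their call and direction under all 32 alternative settings. In 1 of these, the same fit read at an adjusted p under 0.05, no call could be lost. Another 3 genes (Cul3, Klhl21, Klhl28) lost their call only with scaling on 7 spike-in probes. With that scaling 9 of 39 genes were called between C1 and C2 in place of 17 (23.9% of all valid probes were). Between NC1 and C2, 11 were called in place of 19 (28.0% of all valid probes), and 11 in place of 18 by the F-test (27.9%). The spike-in median over 7 probes moved the median of all valid probes between C1 and C2 to -0.14. Between NC1 and C1, 0 were called in place of 1 (1.47% of all valid probes were). At that 0, limma gave Klhl30 -0.82, and 1 of 39 genes had an unadjusted p under 0.05. Between NC1 and C1, 2 genes were called in the fit on all probes of the deposited table (2.93% of those probes were). With no filter 2 were called as well (0.989% of all probes), since both fits included Kbtbd5. Between C1 and C2 these fits also called the genes without a valid probe, except Kbtbd8. Such genes enter through the stages in which they are brighter, so no result is drawn from these calls. The authors' deposited values put the median of all valid probes at 0.33 higher at C2 than at C1. With these values 17 of 39 genes were called, 15 higher (30.6% of all valid probes were) and 2 lower (10.4% were). Averaging all valid probes of a gene turned Cand1 from 0.03 to -0.85 and ended the calls of Klhl25 (0.09) and Rbx1 (0.32) between C1 and C2 and of Klhl25 (0.26) between NC1 and C2. Leaving out 1 array at a time gave 14 to 17 calls between C1 and C2 (44.1% to 47.7% of all valid probes). Between NC1 and C2 it gave 17 to 19 (47.7% to 51.9%), and between NC1 and C1 always 1 (1.81% to 2.69%). By the F-test it gave 17 to 18 (47.2% to 51.5%). With the replicate number as a block, 16 genes were called between C1 and C2 (46.5% of all valid probes were). There were 17 between NC1 and C2 (50.6%), 1 between NC1 and C1 (2.33%) and 17 by the F-test (49.9%). Same-numbered arrays correlated from -0.24 to 0.35 in their deviations from the stage means. The 5 pairs of NC1 and C1 were all positive, from 0.06 to 0.35, but 2 of them were under 0.1, and the negative values were in pairs with C2, so the numbers were not taken to pair the arrays. Background correction by normexp used the median spot signal. Signals near background limit what the dim genes can show at C2.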
